A study of Mus musculus with 2 samples.

Results

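The microRNA hairpins described here are 9 loci best known from striated muscle, 9 of the 2202 hairpins counted in mouse heart. They were taken by GENCODE M21 symbol and matched by Ensembl gene identifier, and all 9 were found. Of these, 3 lie within myosin heavy chain genes (Mir208a, Mir208b and Mir499), and 6 belong to the miR-1, miR-133 and miR-206 families (Mir1a-1, Mir1a-2, Mir133a-1, Mir133a-2, Mir133b and Mir206). Hearts came from 2 female B6CASTF1/J mice aged 25 days, an F1 hybrid of C57BL/6J and CAST/EiJ, given as biological replicates 1 and 2 of 1 group. The labels number the animals separately but give both the same donor identifier, so the spread between samples may be partly technical, and 1 free-text label gives the age in months. No control group was analysed, and parental alleles were not separated.

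Mature microRNAs are cut from a folded precursor, the hairpin, and a mature microRNA finds its target messenger RNAs mainly through its seed, bases 2 to 8. Mir208a, Mir208b and Mir499 are made from introns of genes for contractile proteins, so their precursors are transcribed together with Myh6, Myh7 and Myh7b. In the mouse heart, Myh6 encodes the main adult ventricular myosin, Myh7 the myosin that prevails before birth, and Myh7b a slow-type myosin. Genetic work in mice has tied miR-208a to stress-dependent growth of the heart and to the switch between these myosins. The miR-1 and miR-133 families are made from separate hairpins that lie in pairs. They are known as abundant microRNAs of heart and skeletal muscle, and act on differentiation and proliferation of muscle cells. miR-206, a relative of miR-1, is known from skeletal muscle.

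The mature sequences below show how far the members with a mature entry can be told apart by sequence. They are from RefSeq (build GRCm38.p6), where 6 of the 9 members had a mature entry, are written 5′ to 3′, and have the seed in capitals. Mir1a-2, Mir133a-1 and Mir133a-2 had no entry. Mir1a-1 had an entry for its 5′ arm alone, which is not printed, so miR-1 and miR-133a are not compared here.
miR-208a-3p: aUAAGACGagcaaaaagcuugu
miR-208b-3p: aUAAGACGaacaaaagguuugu
miR-499-5p: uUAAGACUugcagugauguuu
miR-206-3p: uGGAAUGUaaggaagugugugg
miR-133b-3p: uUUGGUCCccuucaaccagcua

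The 3′ arms of Mir208a and Mir208b share the seed UAAGACG, and it was held by 2 of the 1738 mature sequences in the table, these same 2. They are equal at 19 of 22 bases and differ by G10A, A16G and C18U, with positions counted from 1 at the 5′ end of miR-208a-3p. miR-499-5p has the seed UAAGACU, which was held by it alone. Its first 8 bases differ from those of miR-208a-3p by A1U and G8U, so bases 2 to 7 are common to all 3 myosin-hosted microRNAs, and these were the only 3 in the table with those bases. miR-206-3p and miR-133b-3p have unrelated seeds, GGAAUGU and UUGGUCC. Each of the 5 printed sequences occurred whole in 1 annotated hairpin, read on either strand. Without its last base, miR-133b-3p occurred in 3 hairpins, Mir133a-1, Mir133a-2 and Mir133b.

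The 3 myosin-hosted hairpins follow, with both mature arms in capitals, to show where the counted reads can come from.
Mir208a: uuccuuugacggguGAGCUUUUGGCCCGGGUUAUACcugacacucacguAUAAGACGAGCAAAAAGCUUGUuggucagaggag
Mir208b: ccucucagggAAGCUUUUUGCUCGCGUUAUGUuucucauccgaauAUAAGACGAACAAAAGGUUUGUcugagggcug
Mir499: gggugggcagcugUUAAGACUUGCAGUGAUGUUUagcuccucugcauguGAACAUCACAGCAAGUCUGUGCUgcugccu

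All 3 lie in the sense direction within short introns of their hosts. Mir208a lies at chr14:54949060-54949142 on the minus strand of mm10, in intron 29 of Myh6 (transcript with 39 exons), an intron of 542 bases. Mir208b lies at chr14:54975700-54975776 on the minus strand, in intron 31 of Myh7 (41 exons), an intron of 461 bases, and 26557 bases separate it from Mir208a. Mir499 lies at chr2:155622880-155622958 on the plus strand, in intron 19 of Myh7b (42 exons), an intron of 481 bases. No hairpin is annotated on the opposite strand of these 3.

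**Figure D1:**
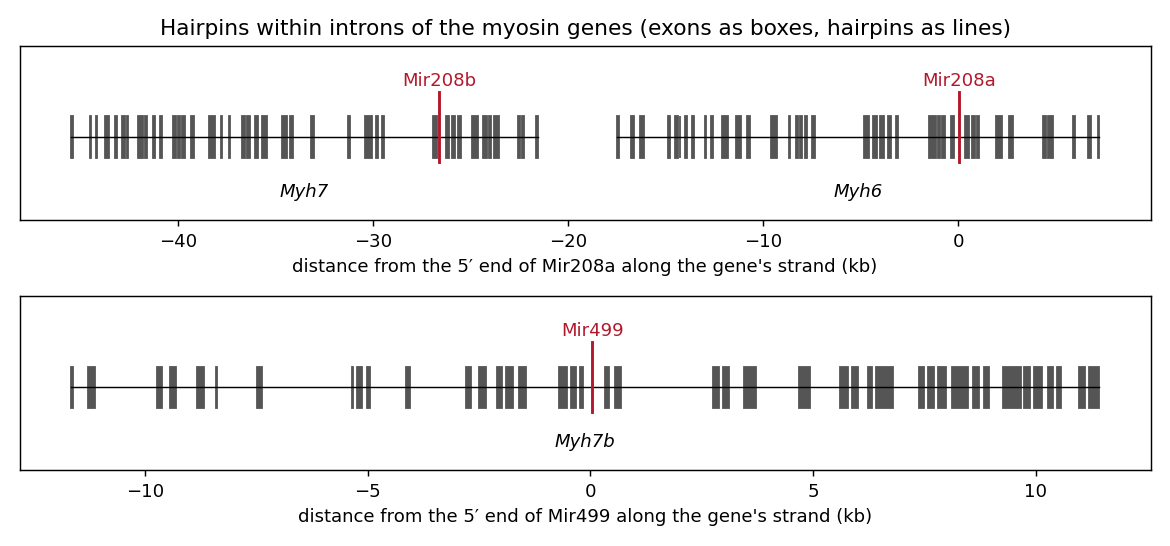
Exons of Myh7, Myh6 and Myh7b (boxes) and the hairpins within them (red lines), by distance in kb from the 5′ end of Mir208a (upper row) or Mir499 (lower row), along the strand of the genes. Each hairpin sits in an intron, numbers 31, 29 and 19 of Myh7, Myh6 and Myh7b, and 26557 bases lie between Mir208b and Mir208a.

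The other 6 hairpins lie in 3 pairs, each holding a miR-1 or miR-206 hairpin and a miR-133 hairpin on 1 strand. Mir1a-1 (chr2:180389048-180389124, plus strand) and Mir133a-2 (chr2:180398379-180398482, plus strand) are 9254 bases apart. They lie in none of the host genes named here, and overlap with other annotated genes is not reported. Mir1a-2 (chr18:10785481-10785552, minus strand) and Mir133a-1 (chr18:10782909-10782976, minus strand) are 2504 bases apart, in intron 1 of the non-coding host gene Mir133a-1hg and antisense to an intron of Mib1. Mir206 (chr1:20679010-20679082, plus strand) and Mir133b (chr1:20682769-20682887, plus strand) are 3686 bases apart. Mir206 is in intron 2 and Mir133b in exon 3 of a transcript of the lincRNA Gm28653.

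The libraries held 2050498 reads assigned to hairpins in replicate 1 and 2661090 in replicate 2, and levels are given as CPM, counts scaled to these sums. The floor was set at 3 counts, which is 1.46 CPM for replicate 1 and 1.13 CPM for replicate 2. Intervals are exact and at the 95% level. Like the floor, they cover counting error alone, since copies made by PCR could not be recognised. Whole-hairpin reads were counted, with mature arms combined. Reads come from arms of similar length, so CPM was not divided by hairpin length. On the scale of CPM per hairpin base, the order of Mir208a, Mir499, Mir208b and Mir1a-2 was the same as in CPM in each library.

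Counted reads of the 9 hairpins came almost entirely from the myosin introns. Reads matching several places were left out of these counts. Mir1a-1 and Mir1a-2 share 28 nt with another hairpin, and Mir133a-1 and Mir133a-2 share 31 nt. How many of the reads left out belong to these loci was not tested. The shares and ratios in this paragraph therefore hold for singly placed reads only, and the intervals do not cover the reads left out. Mir208a, Mir208b and Mir499 together had 9104 counts in replicate 1 and 22062 in replicate 2, and the 6 miR-1, miR-133 and miR-206 loci together had 121 in replicate 1 and 62 in replicate 2. The myosin-hosted hairpins made up 98.7% of the members' counts in replicate 1 (interval 98.4 to 98.9) and 99.7% in replicate 2 (interval 99.6 to 99.8), a mean of 99.2% ± 0.729 (SD, n = 2). Their summed count was 75.2 times that of the other loci in replicate 1 (interval 62.9 to 90.8). In replicate 2 their summed count was 356 times that of the other loci (interval 277 to 464). All 3 had at least 10 counts in both libraries, as did 1 of the 6 other loci, Mir1a-2, against 13.1% of all annotated hairpins.

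Both sets together were a small part of the counts. All 9 made up 0.450% of the hairpin counts in replicate 1 and 0.831% in replicate 2, a mean of 0.641% ± 0.270 (SD, n = 2). Reads matching several places entered no hairpin count. With them in the total but none added to the members, the mean was 0.323%, while without the 10 highest hairpins it was 2.12%. These shares hold for singly placed reads of the members only, and how many of the other reads belong to the members was not tested. The number of heart muscle cells and the RNA per cell cannot be told apart in bulk tissue.

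**Figure D2:**
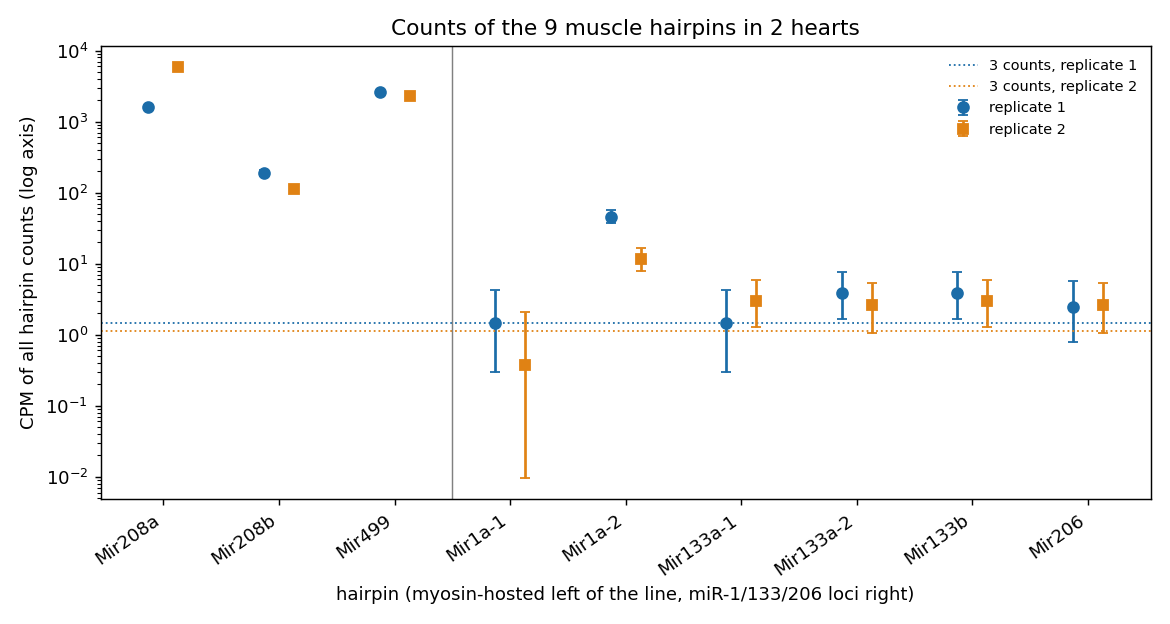
CPM of each of the 9 hairpins (log axis) in replicate 1 (circles) and replicate 2 (squares), with exact 95% Poisson intervals as bars and the level of 3 counts as dotted lines. The myosin-hosted hairpins sit between 112 and 5862 CPM, and of the other 6 only Mir1a-2 exceeds 10 counts in both libraries.

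Mir208a, the microRNA of the Myh6 intron, varied most in rank among the 3. It had 3322 counts (1620 CPM) in replicate 1 and 15598 counts (5862 CPM) in replicate 2, ranks 48 and 24 of all hairpins. Its mean was 3741 ± 2999 CPM (SD, n = 2), so the SD was of the order of the mean. Mir499, the microRNA of the Myh7b intron, had 5391 counts (2629 CPM) in replicate 1 and 6167 counts (2317 CPM) in replicate 2, rank 39 in both. Its mean was 2473 ± 220 CPM. The 2 hearts were close for Mir499 and far apart for Mir208a.

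Mir208b, from the Myh7 intron, was the lowest of the 3 in both hearts. It had 391 counts (191 CPM) in replicate 1 and 297 counts (112 CPM) in replicate 2, with a mean of 151 ± 55.9 CPM. The median detected hairpin, over the 288 with at least 10 counts in both libraries, had 104 CPM in replicate 1 and 83.6 CPM in replicate 2. Mir208b thus lay above that median in both libraries, although far below its relatives.

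The order of the upper pair differed between the hearts. In replicate 1, Mir208a was at 0.616 times the level of Mir499 (interval 0.590 to 0.644), and in replicate 2 at 2.53 times (interval 2.46 to 2.61). Mir499 supplied 59.2% of the myosin-hosted counts in replicate 1, against 36.5% from Mir208a and 4.29% from Mir208b. In replicate 2 it supplied 28.0%, against 70.7% from Mir208a and 1.35% from Mir208b. Over both hearts, the share of Mir208a in this trio was 53.6% ± 24.2 (SD, n = 2), which does not place Mir208a above or below Mir499. Both hairpins exceeded Mir208b in both hearts, Mir208a by 8.50 times in replicate 1 and 52.5 times in replicate 2, and Mir499 did so by 13.8 times in replicate 1 and 20.8 times in replicate 2. Mir208a made up 89.5% of the Myh6 and Myh7 pair in replicate 1 and 98.1% in replicate 2.

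Of the miR-1, miR-133 and miR-206 loci, Mir1a-2 held the most counts in both hearts, 94 of 121 in replicate 1 and 31 of 62 in replicate 2. Its level was 45.8 CPM in replicate 1 and 11.6 CPM in replicate 2, a mean of 28.7 ± 24.2 CPM (SD, n = 2). Mir1a-1, the second locus of miR-1, had 3 counts in the first heart and 1 in the second, so Mir1a-2 gave 96.9% of the counts of this pair in each heart (exact intervals 91.2 to 99.4 in replicate 1 and 83.8 to 99.9 in replicate 2). The other locus is thus at the floor.

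The miR-133 hairpins and Mir206 were near the floor in both hearts. In replicate 1, Mir133a-1 had 3 counts, Mir133a-2 had 8 and Mir133b had 8. In replicate 2, their counts were 8, 7 and 8. The skeletal muscle microRNA Mir206 had 5 and 7 counts in replicates 1 and 2, or 2.44 and 2.63 CPM. The exact Poisson intervals of Mir1a-1, Mir133a-1, Mir133a-2, Mir133b and Mir206 overlapped in each library, so no order among these 5 could be read at this depth. In replicate 1 their levels ran from 1.46 to 3.90 CPM, and in replicate 2 from 0.376 to 3.01 CPM.

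Strand mattered for 1 member. Mir1b is annotated opposite to Mir1a-2 on the plus strand (chr18:10785446-10785567) and had 0 counts on its own strand in replicate 1 and 1 in replicate 2. In the unstranded column, Mir1a-2 stood at 0 in both libraries, and the opposite-strand column of Mir1b held 94 and 31 reads, the counts of Mir1a-2. The other 8 members had the same counts with and without regard to strand. Reads opposite to the 9 members numbered 0 in replicate 1 and 1 in replicate 2.

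The loci differed in how much sequence they share with other hairpins, a property that bears on counting, since reads matching several places entered no hairpin count. The longest exact stretch found in another hairpin, on either strand and leaving out hairpins that overlap on the genome, was 14 nt for Mir208a and Mir208b and 13 nt for Mir499. It was 13 nt for Mir206, 21 nt for Mir133b, 28 nt for Mir1a-1 and Mir1a-2, and 31 nt for Mir133a-1 and Mir133a-2. Every 22 nt window of Mir208a, Mir208b, Mir499, Mir206 and Mir133b occurred in no other annotated hairpin. Such windows made up 87.5% of Mir1a-1, 86.3% of Mir1a-2, 84.3% of Mir133a-2 and 72.3% of Mir133a-1. These percentages cover whole hairpins, while reads come from the arms, so they do not give the part of reads that can be placed. Stretches of 28 and 31 nt are long enough to hold a whole arm. Both Mir133a hairpins hold miR-133b-3p without its last base. Whether the shared stretches hold a whole 3′ arm of the Mir1a or Mir133a hairpins was not tested, since these hairpins had no 3′ mature entry. The search covered annotated hairpins and not the rest of the genome.

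Of the 6 low loci, 4 (Mir1a-1, Mir1a-2, Mir133a-1 and Mir133a-2) share 22 nt or more, and Mir133b and Mir206 do not. Of the 1032 hairpins that share 22 nt or more, 53 (5.14%) had at least 10 counts in both libraries. The share was 25.5% of 55 hairpins at 20 or 21 nt, 22.1% of 357 at 14 to 19 nt and 18.7% of 758 below 14 nt. Together, hairpins sharing 22 nt or more took 1.77% of all counts for replicate 1 and 1.35% for replicate 2. Mir133b, at 21 nt, had 8 counts in each library. Mir206, at 13 nt, had 5 counts in replicate 1 and 7 in replicate 2. The part of shared sequence in these low counts was not tested. Reads matching several places were nearly as many as hairpin counts in replicate 1 (1925044) and slightly more in replicate 2 (2686901), and how many of them belong to miR-1 or miR-133 was not tested. The low counts of Mir1a-1, Mir1a-2, Mir133a-1 and Mir133a-2 therefore hold for singly placed reads only, as do those of Mir133b, whose 3′ arm without its last base also occurs in both Mir133a hairpins.

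**Figure D3:**
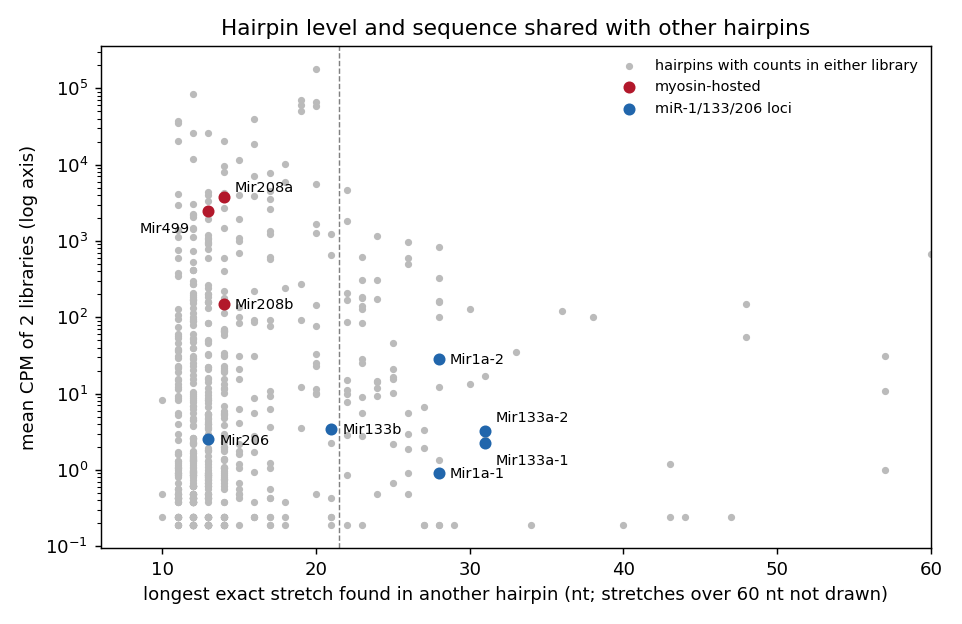
Mean CPM of the 2 libraries (log axis) against the longest exact stretch, in nt, that a hairpin shares with another annotated hairpin. Points are hairpins with counts in either library, with the myosin-hosted members in red and the miR-1, miR-133 and miR-206 loci in blue, and the dashed line separates stretches of 22 nt or more (5 hairpins with counts share over 60 nt and are not drawn). The red points lie at 13 and 14 nt, the Mir1a and Mir133a hairpins at 28 and 31 nt.

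Folding and base composition overlapped between the sets. Folding energies predicted with RNAfold ran from -42.5 to -32.2 kcal/mol for the myosin-hosted hairpins and from -58.8 to -24.7 kcal/mol for the other 6, with a median of -36.9 over detected hairpins. GC content was 49.4%, 45.5% and 51.9% for Mir208a, Mir208b and Mir499, and ran from 33.3% (Mir1a-2) to 56.3% (Mir133b) for the other 6. The median of detected hairpins was 50.5%.

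Both animals share strain, sex and age, so comparing them shows how far the levels vary within 1 group. The log2 ratio divides replicate 1 by replicate 2, after TMM scaling and with 1 CPM added to each, and TMM is a scaling that takes most hairpins as not differing. Hairpins entered if either library had 10 counts or more. Of these 326, an exact two-sided binomial test with Benjamini-Hochberg adjustment called 204 (62.6%), 86 higher (26.4%) and 118 lower (36.2%) in replicate 1. This balance depended on scaling and filter: the calls were 117 higher and 76 lower with library sums, 91 and 86 with at least 1 count, 91 and 74 with at least 50 counts, and 97 and 87 without the 10 highest hairpins. They stayed mostly lower with DESeq2 size factors (91 higher, 99 lower) and without regard to strand (80 and 102). The test sets 1 library against another, not 1 condition against another, and 1 library per animal allows no test of a difference between animals. Of the 9 members, 4 entered the test and 3 were called, 2 higher and 1 lower in replicate 1, a share near that of all hairpins tested. The median log2 ratio was 0.25 over the 4 members and -0.087 over all 326.

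Mir208a was lower in replicate 1 by more than most hairpins. Its log2 ratio was -2.08 (adjusted exact binomial p = 0 at the precision of the software), and 5.21% of the 326 hairpins had a larger ratio in size. Mir208b went the other way, higher in replicate 1 with a log2 ratio of 0.54 (adjusted exact binomial p = 2.50e-06). Its ratio was of ordinary size between these libraries, since 50.3% of hairpins had a larger one and the median size over all 326 was 0.556. Mir1a-2 was also higher, with a log2 ratio of 1.67 (adjusted exact binomial p = 1.27e-09), and 10.1% of hairpins had a larger one. Mir499 missed the threshold (log2 ratio -0.048, adjusted exact binomial p = 0.110), and its sign depended on the scaling. It was 0.18 with library sums (adjusted exact binomial p = 4.92e-11), where the median of all hairpins moved to 0.14.

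**Figure D4:**
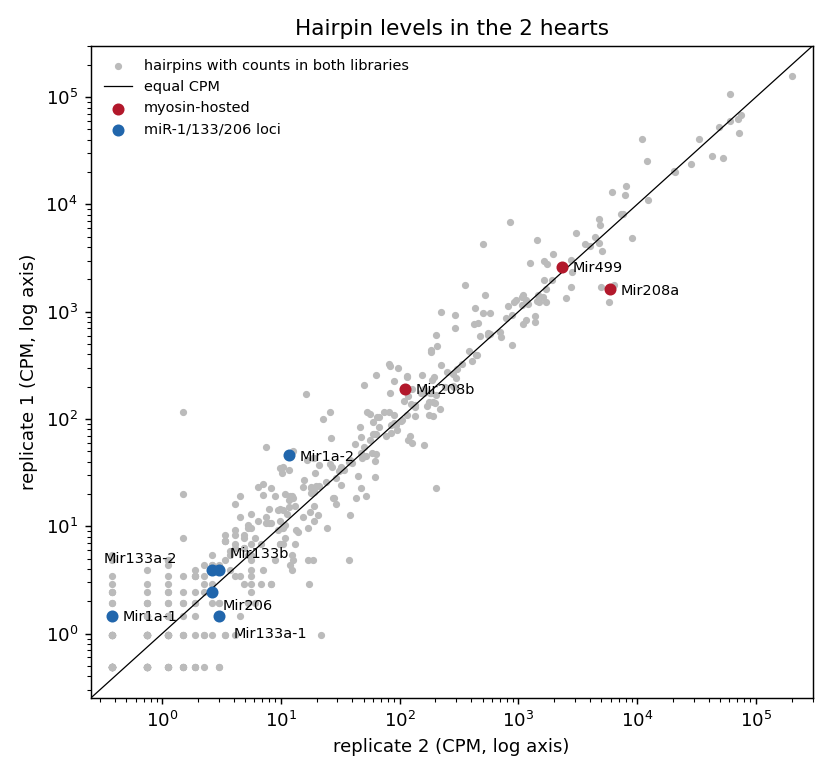
CPM of each hairpin in replicate 1 (vertical, log axis) and replicate 2 (horizontal, log axis), with equal CPM as a line. Points are hairpins with counts in both libraries, the myosin-hosted members in red and the miR-1, miR-133 and miR-206 loci in blue. Mir208a lies below the line (1620 and 5862 CPM), Mir499 close to it, and Mir208b and Mir1a-2 above it.

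Ratios between members need no scaling of the libraries, and they differed between the hearts as well. The ratio of Mir208a to Mir499 was lower in replicate 1, with a log2 difference of -2.04 and a counting interval of -2.11 to -1.96. For Mir208a to Mir208b the log2 difference was -2.63 (interval -2.85 to -2.40). For Mir208b to Mir499 it was 0.59 (interval 0.37 to 0.81), and for Mir1a-2 to Mir499 it was 1.79 (interval 1.21 to 2.38). These intervals cover counting error of independent reads, and with 1 library per heart the animal and the library preparation cannot be told apart.

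**Figure D5:**
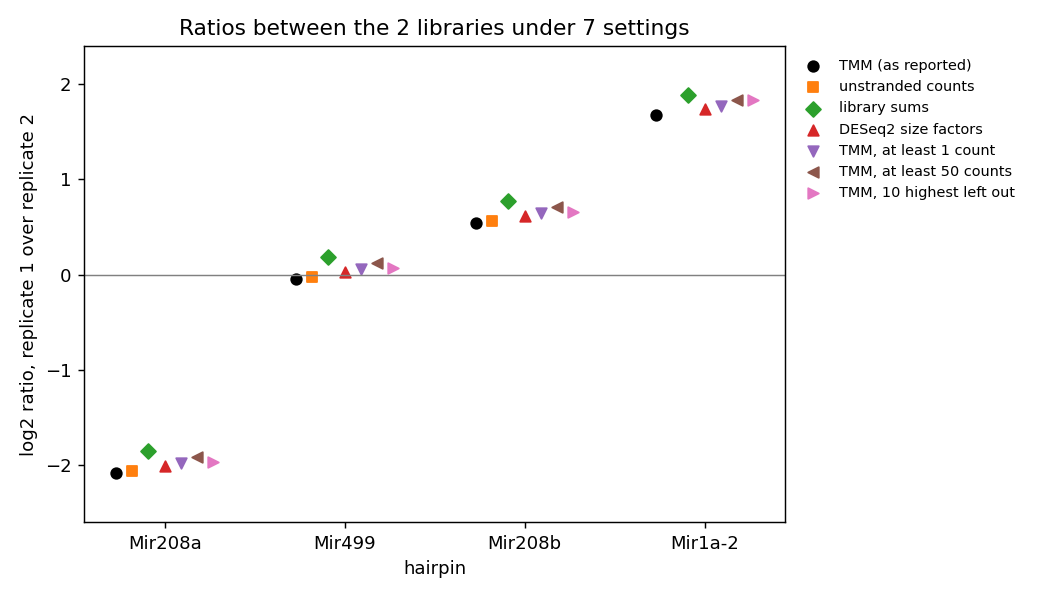
Log2 ratio of replicate 1 over replicate 2 for the 4 tested members under 7 settings of scaling, strand and filter, 1 symbol per setting. Mir208a stays between -2.08 and -1.85, and Mir208b and Mir1a-2 stay above 0 wherever they were tested, while Mir499 lies on both sides of 0, from -0.048 to 0.18.

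Marker hairpins of other cell types moved between the libraries too, and their part in the ratios of the members was not tested. The smooth muscle pair Mir143 and Mir145a summed to 29354 CPM in replicate 1 and 48287 CPM in replicate 2, and both were lower in replicate 1, as Mir208a was. The liver microRNA Mir122, the sole hairpin of its list, was lower as well, at 22.9 CPM against 203 CPM in replicate 2. Higher in replicate 1 were all 3 erythroid hairpins (1783 CPM in replicate 1 and 869 CPM in replicate 2 in sum) and the 1 tested endothelial hairpin of 2, Mir126a (108082 CPM and 60950 CPM for the list). Of 4 leukocyte hairpins, 1 was higher and 3 lower (4647 and 4648 CPM). Of 4 fibroblast hairpins, 2 were tested, 1 higher and 1 lower (6230 and 2414 CPM), and Mir199a-1 stood at 0. Of 6 neuronal hairpins found, 5 stood at 0 in both libraries and the list summed to 0.975 CPM in replicate 1 and 0 in replicate 2. Mir199a-1 shares 28 nt with another hairpin, Mir124a-2 and Mir124a-3 share 32 nt, and Mir9-1 shares 33 nt. Zeros of such hairpins hold for singly placed reads only. Mir206 and Mir133b, listed for skeletal muscle, summed to 6.34 CPM in replicate 1 and 5.64 CPM in replicate 2. The miR-133 family is also known from heart. Counts of Mir133b hold for singly placed reads only, since its 3′ arm without the last base also occurs in both Mir133a hairpins.

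Other muscle-linked hairpins were listed beside the members. Of 7 symbols, 6 were in the tables and 4 were tested, of which 2 were higher and 1 lower in replicate 1. Mir22, known for a role in cardiac hypertrophy, was higher (log2 ratio 1.66), as was Mir486 (0.52), which red blood cells also hold. Mir378a, in an intron of a metabolic coactivator gene, was lower (-0.57), and Mir378b did not pass (0.32, adjusted exact binomial p = 0.508). Mir1b and Mir133c, the remaining relatives of the miR-1 and miR-133 families, had at most 1 count in a library.

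The hairpins most like the myosin-hosted ones in level over the 2 libraries, by distance in log2(CPM + 1), were Mir140 (0.18) and Mir351 (0.24) for Mir208a. For Mir208b they were Mir3102 (0.19) and Mir1843a (0.22), and for Mir499 Mir130a (0.33) and Mir674 (0.34). Mir140 had 1766 CPM in replicate 1 and 6397 CPM in replicate 2, against 1620 and 5862 CPM for Mir208a. With 2 libraries this likeness is a description of level only.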

How the data were processed

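MicroRNA-seq libraries of 2 hearts were read as deposited tables of raw counts per annotated hairpin, without normalization, with columns for either strand, the strand of the hairpin and the opposite strand. Reads were placed on mm10 with GENCODE M21, per the file headers of the deposited notes. Aligner, counter and settings are not given in the sources used here, and the meaning of the columns was read from their layout, in which multiply placed reads have a row of their own and enter no hairpin. Counts on the hairpin's own strand were analysed, and the summary rows without a hairpin identifier were left out of the sums. These rows held, for replicates 1 and 2, 38.5% and 41.6% of reads placed in more than 1 site, 14.1% and 11.5% unmapped, and 6.48% and 5.64% outside hairpins. All 2202 identifiers matched GENCODE M21.

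Scaling used TMM of edgeR 4.0.16 (R 4.3.3), with DESeq2 1.42.0 size factors as an alternative. Hairpins with 10 or more counts in either library were each given an exact binomial test, with the share expected from scaled library sizes, adjusted over all 326, with a pseudocount of 1 CPM in the log2 ratio. The test was checked on simulated counts, where it missed some known differences at low counts. The criterion for passing this check was set after those misses were seen. Simulated counts varied by Poisson error alone, so the check does not cover calls that arise from spread beyond Poisson error. With 1 group, no contrast between groups and no edgeR quasi-likelihood test could be made. The chi-square of the counts was 695 per degree of freedom, beyond sampling noise, so the libraries were not merged. Shared stretches were found in GENCODE transcript sequences, and folding used RNAfold 2.7.2. Named were the 9 members, hairpins opposite to them, the 2 nearest in level to each myosin-hosted member, 7 other muscle-linked symbols and marker hairpins of cell types. Members and lists were chosen with earlier results of these data known.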

Additional observations from a re-analysis of the deposited data

Results flagged for a closer look

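Reads matching several places lie outside the hairpin counts and numbered 1925044 in replicate 1 and 2686901 in replicate 2. They are listed because they exceed the 3 counts that a count of 0 allows, which does not show that they are unusual. How many of them come from the Mir1a and Mir133a hairpins was not tested.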

How the results depend on the processing

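The share of member counts on myosin-hosted hairpins ranged from 98.7% to 99.7% on leaving out a replicate, and the share of Mir208a in the Mir208a and Mir208b pair from 89.5% to 98.1%. Leaving out a replicate gives the value of the library that is left, so it does not test stability. Neither share was recomputed with reads matching several places, since these are not assigned to hairpins. The share of all hairpin counts on the 9 members ranged from 0.450% to 0.831% on leaving out a replicate. It was 0.323% with reads matching several places in the total, none of them in the members' counts. It was 2.12% without the 10 highest hairpins. These totals are larger and smaller by construction. Called hairpins numbered 165 to 193 under 6 alternatives, against 204, and the balance of higher and lower calls turned under 4 of them: library sums (117 higher and 76 lower in replicate 1), at least 1 count (91 and 86), at least 50 counts (91 and 74) and without the 10 highest hairpins (97 and 87). Mir208a and Mir208b kept sign and call under 8 alternatives, as did Mir1a-2 under 7, but without regard to strand Mir1a-2 stood at 0 and was not tested. The log2 ratio of Mir499 turned positive under 5 of 8 alternatives: library sums (0.18), DESeq2 size factors (0.029), at least 1 count (0.056), at least 50 counts (0.12) and without the 10 highest hairpins (0.065). It was past the threshold with library sums, at least 50 counts and without the 10 highest hairpins (adjusted exact binomial p = 4.92e-11, 1.57e-05 and 0.0312), and the cause was not tested. The alternatives for mean CPM were chosen after seeing the data. No paired analysis was possible because both libraries belong to 1 group.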
